A study of Mus musculus with 93 samples.

Results

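The odorant receptor genes of mouse chromosome 11 were followed through 5 stages of olfactory neuron development in single cells. The genes were all those whose symbol begins with Olfr and which the deposited annotation places on chromosome 11 of the mm10 genome. There are 84 such genes among 1112 Olfr symbols in all, or 7.55%. They have 96 of the 1175 Olfr entries in the gene table, and the entry with the highest FPKM (a level in fragments, scaled for transcript length and for library depth) was taken for each of the 9 genes with more than 1. Of the 96 entries, 27 are transcripts assembled by the authors, and 7 of these have no strand. Pseudogenes were kept, and 4 of the genes are named or marked as such. The choice used position and name only, not the measured levels.

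Single cells were picked by hand from dissociated olfactory epithelium of C57BL/6 mice, and poly(A) RNA of each was copied from an oligo(dT) primer, amplified by PCR and sequenced. The groups carry no genetic change or treatment, and no source used here states the age or number of the mice. The labels give 5 stages. The first are Progenitor (11 cells) and Precursor (9), followed by the Early Immature Neuron stage with 27 cells, the Late Immature Neuron stage with 13 and the Mature Neuron stage with 25. Each of the 85 cells has 1 first library. A further 8 libraries repeat 8 of these cells. Since the labels tie no cell to a mouse, each stage counted as 1 sample: no test between stages was made, and every SD is a spread over cells.

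Odorant receptors are G protein coupled receptors in the cilia of olfactory sensory neurons. The mouse genome holds them as clusters on many chromosomes. The class I receptors lie in one cluster on chromosome 7, and the class II receptors, to which those of chromosome 11 belong, lie on many others. A mature sensory neuron is known to express a single receptor gene from a single allele at a high level. Developing neurons can hold RNA of several receptors at once. The receptor also sets where the axon of the neuron goes in the olfactory bulb.

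The mature neuron markers separated the first stages from the last, but not each stage from the next. The summed FPKM of 5 such markers (Omp, Gng13, Adcy3, Cnga2, Stoml3) had a median of 2.42 in Progenitor cells and 11790 in mature neurons. It was 1.67 in Precursor cells and 11102 in late immature neurons. The sum of 4 immature neuron markers had medians of 132, 458, 1412, 105 and 134 in the order of the stages. The late immature and mature labels were thus little separated by these sums. Gap43, a gene of immature neurons, reached an FPKM of 1 in 8 of 13 late immature and 0 of 25 mature neurons. No source used here states how the stages were set. Depth was read from how low values were spaced: in the first libraries, 1 kb of transcript at an FPKM of 1 was worth 0.614 to 10.7 fragments, with a median of 6.13. Genes of sustentacular or blood cells stood high (at least 2 markers at an FPKM of 100 or more) in 20 cells, of which 8 were Progenitor and 6 mature neurons. The cell names carry numbers in 4 ranges. The ranges D29 to D97 and D168 to D205 hold 6 and 19 cells, and 23 cells lie in D213 to D274 and 37 in D316 to D434. No source used here states what the numbers stand for, and the limit between D205 and D213 was set with values known.

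Chromosome 11 receptor genes were detected in 1 of 11 Progenitor cells and, mostly at a low level, in 8 of 9 Precursor cells, and they reached high levels in single cells of the 3 neuron stages. A gene counted as detected at an FPKM of at least 1. The number detected per cell was 0.182 ± 0.603 (SD, n = 11 cells) in Progenitor, 1.22 ± 0.667 (n = 9) in Precursor and 1.33 ± 1.27 (n = 27) in early immature neurons. It was 1.85 ± 1.86 (n = 13) in late immature neurons and 1.92 ± 2.18 (n = 25) in mature neurons. From the Precursor stage on, the largest step between neighbouring stages was smaller than the SD of either stage. At least 1 gene was detected in 1 of 11 Progenitor, 8 of 9 Precursor, 21 of 27 early immature neurons, 11 of 13 late immature neurons and 16 of 25 mature neurons. The exact Clopper-Pearson 95% intervals of these shares ran from 0.230 to 41.3% in Progenitor, 51.8 to 99.7% in Precursor and 42.5 to 82.0% in mature neurons, and they cover counting error only. The Progenitor cell with detected genes was D337, of the range D316 to D434. Only 3 Progenitor cells are of that range, and the other 8 are of the range D168 to D205. All 8 of these stood high in blood or sustentacular genes and none had a detected chromosome 11 gene, so the number range, those genes and the low Progenitor count cannot be told apart. Without the 20 cells high in such genes, the mean was 0.667 (n = 3) in Progenitor and 1.29 (n = 7) in Precursor cells. In that range alone the means were 0.667 in 3 Progenitor, 1.4 in 5 Precursor, 1.32 in 19 early immature neurons, 0.833 in 6 late immature neurons and 2 in 4 mature neurons.

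**Figure D1:**
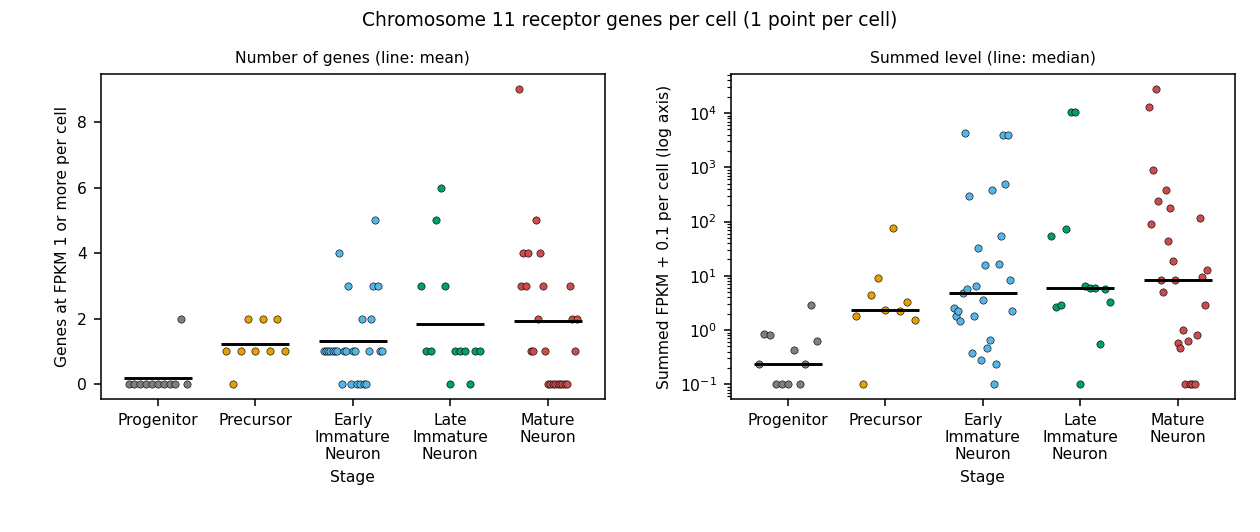
The left panel plots how many chromosome 11 receptor genes reached an FPKM of 1 in each cell, with the mean of each stage as a line, and the right panel the summed FPKM of these genes plus 0.1 on a log axis, with the median as a line. One point is 1 cell, and the highest summed FPKM is 2.78 among Progenitor cells and 27601 among mature neurons, and the medians lie between 0.138 and 8.40.

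The summed FPKM of the 84 genes showed a low bulk and a few very high cells. In Progenitor cells its lowest, median and highest values were 0, 0.138 and 2.78. In Precursor cells they were 0, 2.21 and 75.3, and in early immature neurons 0, 4.68 and 4258. In late immature neurons they were 0, 5.74 and 10668, and in mature neurons 0, 8.40 and 27601. Each stage had at least 1 first library in which all 84 genes are listed at 0. A 0 does not show absence of RNA: D250 is the only such late immature neuron, and its repeat library holds Olfr325 at 10.1. Nor does that value show that D250 held the RNA. Olfr325 is at 10652 in D233, of the same number range, and whether low values pass between libraries was not tested. The stages overlapped at their low ends, while the highest Progenitor and Precursor sums lay far below the highest sums of the neuron stages.

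As the stages differ in the number of cells, the genes detected in any cell are given beside the share of all 1112 Olfr symbols detected in the same stage. In Progenitor cells 2 of the 84 genes were detected, beside 5 (0.45%) of all 1112 Olfr symbols, which include the 84. In Precursor cells 6 were, beside 15 (1.35%). Early immature neurons gave 17 genes beside 124 (11.2%), late immature neurons 13 beside 67 (6.03%), and mature neurons 15 beside 78 (7.01%). Over all cells, 29 of the 84 genes (34.5%) were detected, beside 18% of all Olfr symbols and 16.6% of the 1028 Olfr symbols on other chromosomes. At an FPKM of at least 10 the count was 18, beside 14.5%, and at an FPKM of at least 100 it was 14 (16.7%), beside 8.54%. On chromosomes 14 and 16 the shares were 40% (16 of 40) and 44.4% (16 of 36), and on chromosomes 2, 7 and 9 they were 16.8% (48 of 286), 8.79% (21 of 239) and 16.03% (21 of 131). These shares were not tested, because the cells are not independent samples of a stage. The share went with the presence of an assembled entry: 15 of 18 chromosome 11 genes that have one were detected and 14 of 66 that have none, beside 103 of 117 and 68 of 911 on the other chromosomes. No source used here states which reads the authors assembled, and the part of assembly in the share was not tested. With assembled entries left out, 69 of the 84 genes remain in the table, and those detected number 0, 1, 4, 8 and 11 in the order of the stages.

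The 6 Precursor genes call for the values themselves, since low counts can rest on few cells. Olfr330 was the gene detected in most Precursor cells, with FPKM of 2.21 in D319, 2.16 in D374, 1.82 in D383, 1.32 in D345 and 1.29 in D398. Olfr393 followed, at 4.37 in D195 and 1.60 in D178. Olfr325 and Olfr56 were detected in D242 alone, at 6.51 and 2.23, Olfr323 in D383 alone, at 1.31, and Olfr392 in D345 alone, at 73.9. Olfr392 was the one chromosome 11 gene to pass an FPKM of 10 before the neuron stages. Its value comes from an assembled entry of 718 bp without strand (chr11:73811738-73812455) and stands for about 342.3 fragments, while its other entry, on the minus strand, is listed at 0 in D345. Chromosome 11 genes made up a mean of 66.1% of the Olfr genes detected per Precursor cell (8 cells with any), against 18.9% in early immature neurons, 18.1% in late immature neurons and 18.3% in mature neurons. The Precursor share rests on 11 of 23 detected values. In D345, D374, D383 and D398 the 1 or 2 Olfr genes detected were all of chromosome 11, which raises the mean. The Progenitor mean was 25% (4 cells with any), and 7.55% of all Olfr symbols lie on chromosome 11.

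**Figure D2:**
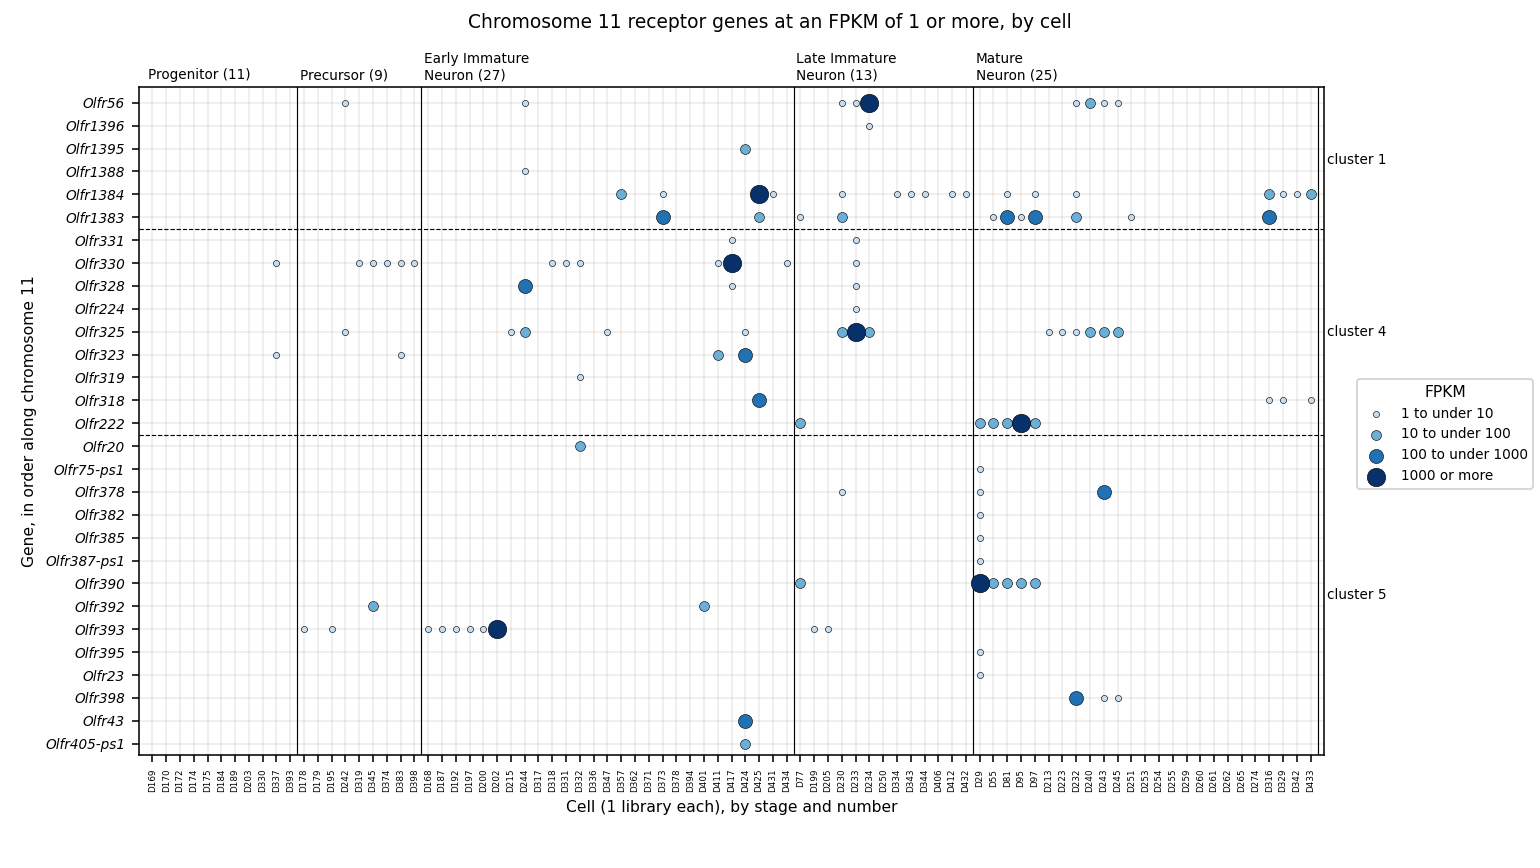
Each dot is a chromosome 11 receptor gene (rows, in order along the chromosome) detected in a cell (columns, by stage and number), with larger and darker dots for higher FPKM. The 7 values of 1000 or more stand alone in their rows, among smaller dots.

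Along the chromosome, the 84 genes form 6 clusters when they are split at gaps over 1 Mb. All detected genes lie in 3 of these. Cluster 1 (chr11:48978889-49564860) holds 19 genes, 6 of them detected and 3 at an FPKM of at least 100. Cluster 4 (chr11:58454915-59614490) holds 23, of which 9 were detected and 6 reached 100, and cluster 5 (chr11:73350825-74365609) holds 33, of which 14 were detected and 5 reached 100. The shares detected were 31.6, 39.1 and 42.4%. In cluster 2 (chr11:50969020-51027945, 4 genes), cluster 3 (chr11:52144593-52213987, 2 genes) and cluster 6 (chr11:87888959-87916685, 3 genes) every gene is listed at 0 in all first libraries. As only 18% of all 1112 Olfr symbols were detected in any cell, clusters this small can lack a detected gene without being set apart. Of the 55 genes under an FPKM of 1, 49 are at 0 throughout and 6 above it. The detected value nearest above the limit was 1.004 (Olfr398 in D243) and the value nearest below it 0.988 (Olfr56 in D215).

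**Figure D3:**
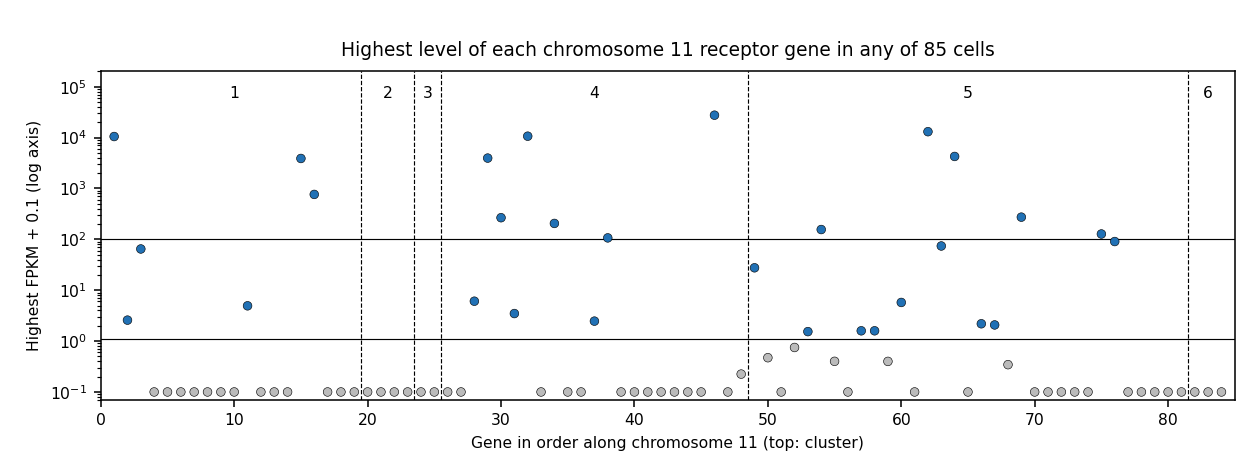
The highest FPKM of each of the 84 genes in any first library, plus 0.1 on a log axis, is plotted in the order of the genes along chromosome 11, with clusters 1 to 6 between dashed lines, detected genes in blue and lines at an FPKM of 1 and 100. High genes are scattered within clusters 1, 4 and 5 among genes at 0, and clusters 2, 3 and 6 stay at 0.

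In cluster 1, Olfr56 (chr11:48978889-49135387, plus strand) reached an FPKM of 10492 in the late immature neuron D234. It stood at 27.2 in D240, 4.72 in D230, 4.66 in D243, 3.68 in D233, 2.94 in D232, 2.74 in D245, 2.23 in D242 and 2.01 in D244. All 9 cells have numbers from D213 to D274, and D234 is far above the others. The annotated entry of Olfr56 also spans Ifi47, an interferon-induced gene on the same strand, which is detected in 1 cell of the 85 and is not detected in D234. Olfr1396, a near relative inside the same span on the minus strand, was detected in D234 alone, at 2.48, which stands for 2 fragments. Olfr1395 (chr11:49148231-49150291) was detected in 1 cell, D424, at 64.6, and Olfr1388 in D244, at 4.84.

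Olfr1384 and Olfr1383 lie next to each other at the far end of cluster 1 (chr11:49513369-49518654 and chr11:49523633-49524770, both on the plus strand). Olfr1384 had 1 very high cell, the early immature neuron D425, at an FPKM of 3886. In 16 other cells it ranged from 1.34 to 15.0, that is from 0.0345 to 0.387% of the highest value. Those cells were D357 (15.0), D316 (10.9), D433 (10.02), D81 (9.71), D329 (7.84), D431 (7.69), D334 (6.29), D344 (5.83), D343 (5.63), D412 (5.28), D373 (5.13), D432 (3.14), D342 (2.81), D230 (2.65), D232 (1.66) and D97 (1.34). No other chromosome 11 gene was detected in more cells. Olfr1383 behaved differently, as its values were graded: 763 in D81, 377 in D373, 130 in D97, 103 in D316, 94.5 in D232, 36.6 in D230, 22.2 in D425, 7.97 in D251, 1.395 in D77, 1.197 in D55 and 1.103 in D95. It alone of the 84 genes passed an FPKM of 100 in more than 1 cell. It passed it in 4, of which 3 are mature neurons, D81, D97 and D316. In those 3 it was not the highest receptor, ranking 2 or 3 among the Olfr genes of the cell.

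In cluster 4, Olfr330 (chr11:58528724-58534825, minus strand) reached 3953 in the early immature neuron D417. In 12 further cells it lay between 1.04 and 6.07, with the highest of these in D331 (6.07), D332 (2.53) and D233 (2.28). The others were the 5 Precursor cells given above, D434 (2.06), D411 (1.48), D318 (1.35) and the Progenitor cell D337 (1.04). All but D233 have numbers from D316 to D434. Olfr325 (chr11:58580832-58583852) was highest in the late immature neuron D233, at 10652. It was lower in 13 other cells: D234 (64.3), D230 (26.7), D243 (19.3), D244 (17.4), D240 (16.5), D245 (14.3), D213 (7.56), D232 (7.17), D242 (6.51), D223 (4.87), D424 (4.82), D215 (4.52) and D347 (3.39). The high value belongs to an assembled entry of 500 bp on the minus strand, which lies inside a plus strand entry of 1548 bp that holds 4635 in D233. The library protocol in the labels does not state that strand was kept, so reads of the 2 entries cannot be told apart.

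Olfr222 (chr11:59570699-59571813, minus strand) gave the highest chromosome 11 value of the series, 27555 in the mature neuron D95, or about 145919 fragments. It stood at 47.9 in D97, 46.0 in D81, 44.9 in D55, 25.0 in D77 and 19.8 in D29. These are the 6 cells numbered D29 to D97, and Olfr222 was detected in no other cell. Olfr323 was detected in D424 (205.3), D411 (53.4), D337 (1.68) and D383 (1.31), and in the last 3 cells the value comes from an entry of 279 bp without strand and not from the gene's longer entry, which holds the D424 value. Olfr318 was detected in D425 (107), D433 (2.29), D329 (1.67) and D316 (1.36), from a short entry without strand, apart from the gene's longer entry. Olfr328 was detected in D244 (266), D417 (1.58) and D233 (1.37). Its D244 value rests on an entry of 292 bp without strand and about 20.2 fragments, and D244 also held sustentacular cell genes at a summed FPKM of 3554, the second highest sum after D230 at 4871. The part of those RNAs in the value was not tested. Olfr331 (up to 5.98), Olfr224 (3.38) and Olfr319 (2.37) made up the rest.

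In cluster 5, Olfr390 (chr11:73782966-73787875, plus strand) repeated the pattern of Olfr222. It was 13060 in the mature neuron D29, 73.3 in D81, 63.3 in D97, 44.6 in D55, 43.7 in D95 and 26.7 in D77, and was detected nowhere else. Olfr393 (chr11:73843195-73848144, minus strand) reached 4258 in the early immature neuron D202. It stood at 4.60 in D200, 4.37 in D195, 2.85 in D205, 2.59 in D199, 2.41 in D168, 2.09 in D192, 1.65 in D187, 1.60 in D178 and 1.37 in D197, all of them numbered D168 to D205. Olfr398 was detected in D232 (273), D245 (1.23) and D243 (1.004), Olfr378 in D243 (156), D230 (1.59) and D29 (1.13), and Olfr392 in D345 (73.9) and D401 (16.3). Olfr43 and the pseudogene Olfr405-ps1 were detected in D424 alone, at 127 and 90.4, and Olfr20 in D332 alone, at 27.5. The Olfr405-ps1 value comes from a short entry without strand. The other 6 detected genes of cluster 5 were seen in D29 only and are given below.

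The 9 cells led by a chromosome 11 gene, meaning that their highest Olfr gene was one of the 84 at an FPKM of at least 100, came from 61 cells with a receptor at that level (14.8%). They were 4 of 24 such early immature neurons, 2 of 12 late immature neurons and 3 of 24 mature neurons. No Progenitor cell, and 1 Precursor cell, had any receptor at that level. Each was led by a different gene. In 5 of them the leading gene exceeded the next Olfr gene by over 100 times: Olfr330 by 1074 times in D417, Olfr390 by 659 times in D29, Olfr222 by 536 times in D95, Olfr393 by 341 times in D202 and Olfr56 by 139 times in D234. The leading gene held 97.6 to 99.8% of the Olfr FPKM of these cells. In D425 the ratio of Olfr1384 to the next gene, Olfr318 of cluster 4, was 36.4, and in D233 that of Olfr325 to Olfr1284 of chromosome 2 was 20.6. The other 2 were mixed. In the early immature neuron D373, Olfr1383 (377) stood beside Olfr1314 (257) of chromosome 2, and in the mature neuron D232, Olfr398 (273) stood beside Olfr147 (230) of chromosome 9.

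Maturity and zone genes differed among those cells. Omp, the marker of mature olfactory neurons, was at an FPKM of 25662 in D29, 19922 in D95, 11261 in D234, 7529 in D233, 5642 in D232, 6224 in D425 and 2864 in D202, and at 4.64 in D373 and 0 in D417. Gap43, a growth cone gene of immature neurons, was at 2155 in D417, 374.5 in D425, 360 in D202 and 276 in D373, and at 0 in the 5 late immature and mature neurons. Among the early immature neurons, Olfr330 stood at 3953 in D417, where Omp is listed at 0. D417 has no repeat library, so this 0 does not show that Omp RNA was absent. Ncam2, a marker of the ventral zone of the epithelium, was at 296 in D95, 235 in D373, 123 in D234, 70.2 in D425, 63.2 in D233, 48.4 in D202 and 39.0 in D417, and at 0.280 in D232 and 0.153 in D29. Nqo1, a marker of the dorsal zone, was at 4.92 in D234 and under 1 in the other 8.

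Early immature neurons also held chromosome 11 genes together without one of them leading. D424 held 4 genes at an FPKM of at least 10: Olfr323 (205.3) of cluster 4, Olfr43 (127) and Olfr405-ps1 (90.4) of cluster 5, and Olfr1395 (64.6) of cluster 1, with Olfr325 at 4.82. They made up 38.1% of its Olfr FPKM, and its highest receptor was Olfr1431, which lies elsewhere. The Olfr405-ps1 value comes from an entry of 308 bp without strand and about 51.6 fragments. The longer entry of Olfr405-ps1, on the minus strand, holds 7.22 in D424. The other cells of this stage held at most 4 detected chromosome 11 genes. Without D424, the genes detected in this stage fall from 17 to 14.

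Many low values belonged to a gene that was very high in a cell of the same number range. For the 14 genes that reached an FPKM of 100, 78 values were under 1% of the gene's own highest value, and 69 of these were in cells of the range that holds the highest cell. Of 75 values at an FPKM of 1 to 10, 49 (65.3%) had a value at least 100 times higher in another cell of their range. Since the limit between D205 and D213 was set with values known, part of both counts may be built in. The same counts were not made for the other Olfr symbols. When values under 1% of the highest of the gene were left out, the mean number of genes in a Progenitor cell was 0 and in a Precursor cell 0.111. It was 0.630 ± 1.08 in early immature neurons, 0.538 ± 1.05 in late immature neurons and 0.720 ± 1.46 in mature neurons. Single cells weigh heavily in these means. Without D29 the mature mean was 0.458, without D233 the late immature mean was 0.333, and without D345 the Precursor mean was 0. D29 holds 6 genes seen in no other cell, which the 1% limit keeps by construction. The detected Precursor and Progenitor values thus came mostly from genes with a far higher value in a neuron, with Olfr392 in D345 as the exception. For Olfr323 the highest value, 205.3 in D424, belongs to another entry than the values in D337 and D383. The entry behind those 2 values reached 53.4, in D411. Whether low values pass between libraries was not tested.

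**Figure D4:**
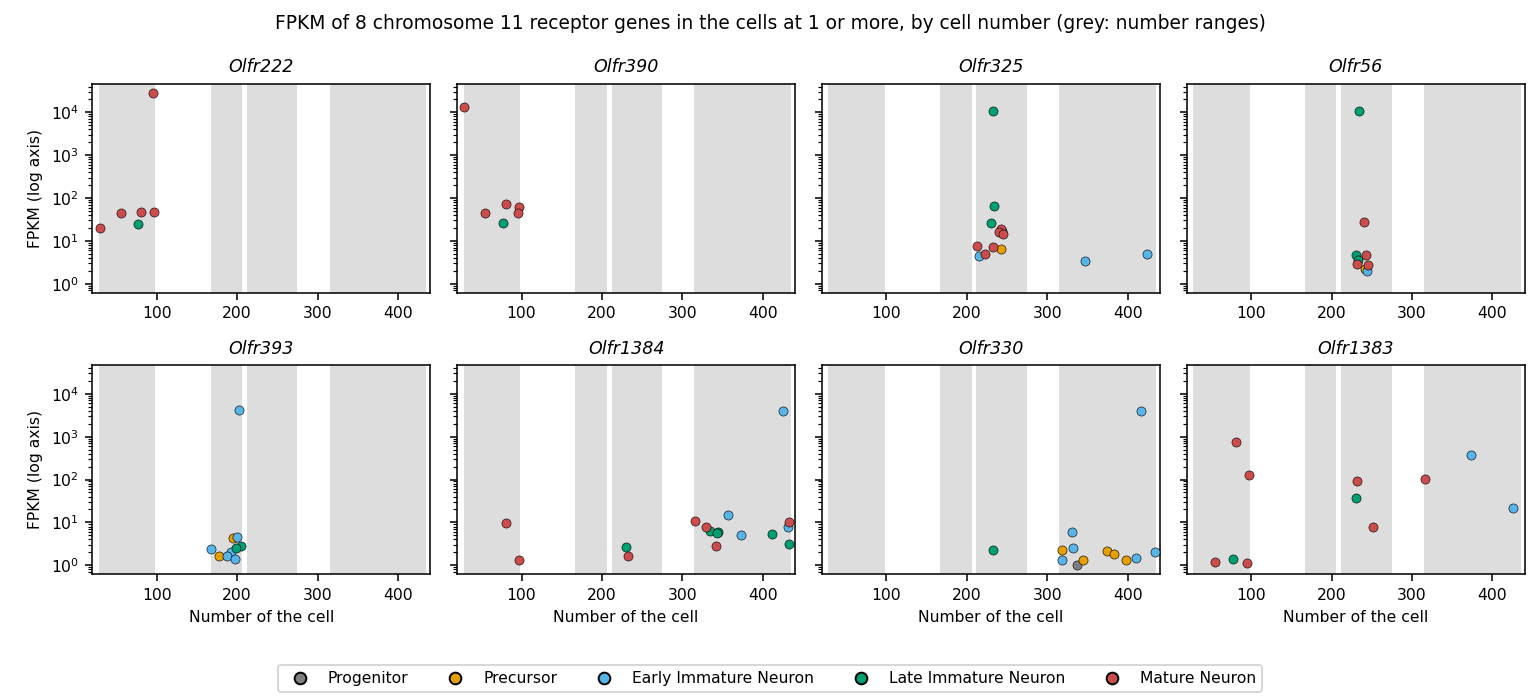
The FPKM of 8 genes (log axis) is plotted against the number of the cell, for cells at an FPKM of at least 1, with colours for the stages and grey bands for the 4 number ranges. The low values of Olfr222, Olfr390, Olfr56 and Olfr393 stay within the band of the highest cell, at 27555, 13060, 10492 and 4258, while the values of Olfr1383 are spread over 3 bands.

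Receptor genes of a cluster arose by duplication, and near copies can share reads. Cells with 2 or more detected genes numbered 27 and gave 141 pairs, of which 62 (44.0%) lay within 1 Mb of each other. The share among all possible pairs of the genes was not computed. The shares given here therefore do not show whether neighbours were detected together more often than position alone gives. Identity of at least 80% over the coding sequence was found in 26 pairs, and all 26 were among the 62. The mature neuron D29 gave 36 of the 141 pairs and 28 of the 62 near ones, and without it the share was 32.4%. Without the 26 alike pairs the share within 1 Mb was 31.3%, and it fell to 15.5% (13 of 84) when D29 was left out as well. At an FPKM of at least 10 it was 15.4% (4 of 26 pairs). Among pairs within 1 Mb, 19 joined a gene at 100 or more with one under 10, and they were 47.9 to 94.6% identical. The low end is a pair with the pseudogene Olfr75-ps1, whose reading frame is short, as gaps count as differences. Without pseudogenes the low end was 54.9% (Olfr378 and Olfr398 in D243).

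The late immature neuron D233 shows such a set. Beside Olfr325 (10652), it held Olfr331 (5.98), Olfr224 (3.38), Olfr330 (2.28) and Olfr328 (1.37), all of cluster 4 and 14435 to 79234 bp away from Olfr325. Each has a coding sequence 87.6 to 93.6% identical to that of Olfr325, and between 21.7 and 52.6% of its words of 31 bases occur in Olfr325. The stretches of 90 bases that follow are the matching parts of the coding sequences (GENCODE M21 transcripts), and capitals mark the bases that differ from Olfr325, between 6 and 11 in each. They are shown so that the likeness of genes detected together can be read base by base.
Olfr325: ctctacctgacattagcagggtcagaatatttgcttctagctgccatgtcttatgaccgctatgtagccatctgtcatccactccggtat
Olfr331: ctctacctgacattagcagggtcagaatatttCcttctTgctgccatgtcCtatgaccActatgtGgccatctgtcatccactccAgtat
Olfr224: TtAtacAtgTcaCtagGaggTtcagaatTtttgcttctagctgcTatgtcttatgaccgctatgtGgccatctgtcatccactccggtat
Olfr330: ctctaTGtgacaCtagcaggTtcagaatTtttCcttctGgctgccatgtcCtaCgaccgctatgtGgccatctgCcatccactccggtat
Olfr328: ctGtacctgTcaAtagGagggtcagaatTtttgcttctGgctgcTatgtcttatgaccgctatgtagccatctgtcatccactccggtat

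The mature neuron D29 held 9 detected chromosome 11 genes, more than any other cell. Besides Olfr390 (13060) and Olfr222 (19.8), these were Olfr387-ps1 (5.65), Olfr395 (2.09), Olfr23 (1.98), Olfr382 and Olfr385 (1.49 each), Olfr75-ps1 (1.44) and Olfr378 (1.13). All but Olfr222 belong to cluster 5. Olfr390 is 78.7 to 83.6% identical to those not named as pseudogenes. Its identity is 47.9% with Olfr75-ps1 and 59.6% with Olfr387-ps1. The longest reading frames of these pseudogenes are 585 and 672 bp, against 936 bp for Olfr390, and gaps count as differences. Olfr382 and Olfr385 stand for 10 fragments each and Olfr395 and Olfr23 for 14 each. Their coding sequences share fewer words with the leading gene than those of D233, between 0 and 9.79% of words of 31 bases. Without D29, the genes detected in mature neurons fall from 15 to 9. The same part of the coding sequence, from base 307 of Olfr390, is given below for Olfr390 and 6 of its neighbours, with capitals for the bases that differ from Olfr390, between 9 and 20. The stretch takes in the conserved residues at the end of the third transmembrane segment, which are typical of odorant receptors.
Olfr390: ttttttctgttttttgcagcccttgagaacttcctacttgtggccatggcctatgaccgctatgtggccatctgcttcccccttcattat
Olfr387-ps1: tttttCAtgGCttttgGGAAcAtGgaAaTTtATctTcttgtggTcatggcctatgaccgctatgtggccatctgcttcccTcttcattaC
Olfr395: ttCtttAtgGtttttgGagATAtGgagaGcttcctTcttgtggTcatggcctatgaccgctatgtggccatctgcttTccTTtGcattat
Olfr23: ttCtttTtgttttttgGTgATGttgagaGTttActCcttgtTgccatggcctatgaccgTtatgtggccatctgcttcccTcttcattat
Olfr382: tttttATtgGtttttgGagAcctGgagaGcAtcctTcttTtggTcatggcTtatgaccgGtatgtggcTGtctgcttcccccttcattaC
Olfr385: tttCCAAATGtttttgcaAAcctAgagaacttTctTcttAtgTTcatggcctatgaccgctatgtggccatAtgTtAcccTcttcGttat
Olfr378: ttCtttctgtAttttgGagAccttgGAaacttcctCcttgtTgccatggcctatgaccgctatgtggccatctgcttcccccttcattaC

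The cell D417 gave the same kind of pair, with Olfr330 (3953) beside Olfr331 (2.36), 94.6% identical, and Olfr328 (1.58), 90% identical. In D425, Olfr1384 (3886) stood beside its neighbour Olfr1383 (22.2), which is 86.4% identical. In the 10 other cells with Olfr1383 it was above Olfr1384. No source used here states how reads that match more than 1 gene were assigned, and low values of near copies are uncertain for that reason.

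Windows from 250 bases before to 50 after the RefSeq gene start (GRCm38.p6, the assembly of mm10) were read in place of promoters. That start is not always a transcription start. In the windows of Olfr222 and Olfr393 below, the last 50 bases begin with an ATG. For Olfr1388 (936 bp) and Olfr382 (939 bp) the deposited entry is no longer than the coding sequence. Such windows may miss the promoter, and the shares below include them. A window was found for 70 of the 84 genes, 71 windows in all. A few words were searched on both strands. The word TAATTA was found in 19.7% of these windows, against 18.6% of all Olfr windows and 5.29% of the windows of all genes. For TAATGA the shares were 40.8, 29.1 and 9.78%, and for TAATTG 15.5% and 23.3%, with 2628 of the 32851 windows of all genes. Any of these words, which hold the core bound by homeodomain factors such as Lhx2, was in 56.3%, 54.3% and 19.9%. The word CCCNNGGG, the core of the Olf1/Ebf palindrome, was found in 2.82, 3.02 and 13.7%. The windows of genes that reached an FPKM of 100 held a TAAT word in 7 of 13. The 3 windows that follow belong to genes with an entry at an FPKM over 1000 whose RefSeq start lies within 100 bp of the start of a deposited entry. They show 1 window with TAAT words (Olfr393, chr11:73848074-73848373, minus strand), 1 with CCCNNGGG (Olfr330, chr11:58534776-58535075, minus strand) and 1 with neither (Olfr222, chr11:59571689-59571988, minus strand). Olfr325 also meets the limits of level and distance, and its window, which holds TAATGA, is not shown. Capitals mark the words found, in either direction.
Olfr393: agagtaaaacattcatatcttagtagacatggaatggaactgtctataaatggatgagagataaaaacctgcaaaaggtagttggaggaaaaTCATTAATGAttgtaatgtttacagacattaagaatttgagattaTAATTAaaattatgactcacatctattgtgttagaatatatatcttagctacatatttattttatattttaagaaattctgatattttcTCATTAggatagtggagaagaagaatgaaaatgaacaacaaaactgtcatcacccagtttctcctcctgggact
Olfr330: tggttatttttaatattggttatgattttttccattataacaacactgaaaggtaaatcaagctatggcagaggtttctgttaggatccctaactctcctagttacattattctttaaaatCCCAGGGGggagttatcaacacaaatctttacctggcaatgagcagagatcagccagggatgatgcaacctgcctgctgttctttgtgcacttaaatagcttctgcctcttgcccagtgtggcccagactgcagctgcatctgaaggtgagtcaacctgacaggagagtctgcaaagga
Olfr222: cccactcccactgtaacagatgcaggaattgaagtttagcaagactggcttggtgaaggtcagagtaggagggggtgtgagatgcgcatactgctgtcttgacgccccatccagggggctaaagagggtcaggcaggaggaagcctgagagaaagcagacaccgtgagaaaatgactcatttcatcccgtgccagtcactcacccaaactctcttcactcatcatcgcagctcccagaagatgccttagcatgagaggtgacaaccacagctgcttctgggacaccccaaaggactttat
These 3 genes reached 4258, 3953 and 27555, with and without these words in the window. For Olfr393 the 4258 belongs to a second assembled entry of the gene (chr11:73843195-73845304), and the entry that starts at the window holds 836 in D202. In the first capitals of Olfr393, TAATGA stands in both directions, with an overlap.

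Genes of other kinds lie among the receptors. Between the first and last genes of the clusters are 36 protein coding genes that are not Olfr genes, of which 22 were detected in a cell and 4 in at least 50% of the cells. Arf1, a small GTPase of the Golgi inside cluster 4, was detected in all 85 cells, with stage medians of 148, 197.2, 286, 226 and 267 in developmental order. Hist3h2ba, a histone gene inside the same cluster, was detected in every Progenitor, Precursor and early immature neuron and in 10 of 13 late immature and 12 of 25 mature neurons, with medians of 37.1, 238, 183, 6.70 and 0.579. Snap47, a SNAP family gene there, had medians of 31.5, 2.15, 5.06, 11.6 and 3.47. Just outside, Skp1a beyond cluster 3, a ubiquitin ligase subunit, was detected in 84 cells, and Dynll2 beyond cluster 6, a dynein light chain, in all 85, while the receptors of clusters 3 and 6 were at 0. Those clusters hold only 2 and 3 receptor genes, and 18% of all Olfr symbols were detected in any cell. Mprip, beyond cluster 4, was detected in 55 cells.

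Genes that a receptor needs to work, or that are known to act on receptor choice, were followed as a list of 25. It holds genes of the signal cascade in the cilia and its regulation (Gnal, Adcy3, Cnga2, Cnga4, Cngb1, Ano2, Gng8, Gng13, Ric8b, Omp, Stoml3, Pde1c, Pde4a, Slc24a4), the receptor transport genes Rtp1 and Rtp2, and genes that act in the nucleus (Lhx2, Ldb1, Emx2, Ebf1 to Ebf4, Kdm1a, Atf5). Of the 25, 12 could be compared between Progenitor and Precursor cells, meaning that at least one of these stages had them in at least 50% of its cells, and 9 were higher by at least 1 unit of mean log2(FPKM + 1) and none lower. Over all genes compared, 20.1% were higher and 21.6% lower. From Precursor to early immature neurons 17 of 21 were higher and 2 lower, beside 22% and 28% of all genes. From early to late immature neurons 16 of 24 were higher and 3 lower, beside 32.5% and 16%, and from late immature to mature neurons 1 of 23 was higher and 3 lower, beside 4.54% and 32.7%. The median differences of the list were 1.49, 2.64, 2.82 and 0.32 on that scale, beside -0.03, -0.26, 0.41 and -0.58 over all genes. The genes lower by at least 1 unit, named after their values were seen, were Lhx2 and Kdm1a into the early immature stage, Gng8, Emx2 and Kdm1a into the late immature stage, and Gng8, Emx2 and Ebf4 into the mature stage. Pde4a was the one gene higher in the last step.

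The list's most widely detected genes were Lhx2, Atf5 and Ebf1 to Ebf3. Lhx2, a homeodomain factor that binds receptor enhancers, had a median FPKM of 93.2 among Progenitor cells, 514 among Precursor cells and, along the neuron stages, 145, 128 and 79.5. Atf5, a factor of the receptor feedback response, had medians of 26.6, 69.6, 277, 395 and 502 in the order of the stages. Ebf1, of the Olf/Ebf family, had medians of 5.12, 8.43, 103, 64.1 and 92.3, and Ebf3 1.38, 32.8, 150, 104 and 143. Ebf2 had 29.8, 130, 222.5, 131 and 262.4. In Precursor cells, then, Lhx2 stood at its highest median while the summed chromosome 11 receptor FPKM had a median of 2.21.

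The 8 cells sequenced again give the spread between libraries of 1 cell. In either library, 35 values of chromosome 11 genes reached an FPKM of 1: 9 in both, 13 in the first alone and 13 in the repeat alone. The highest value was found again, with Olfr325 at 10652 and 13725 in D233. Of its low near copies in D233, Olfr331 was 5.98 and 2.05, Olfr224 3.38 and 1.04 and Olfr330 2.28 and 3.53. Olfr328 was 1.37 and 0 there. Lower values varied more. Olfr328 was 266 and 71.0 in D244, and Olfr378, at 156 in the first library of D243, was 0 in the repeat. Olfr1383 was 36.6 and 0 in D230, and 7.97 and 35.4 in D251. Olfr325 was 26.7 and 48.9 in D230, 19.3 and 33.0 in D243, and 17.4 and 74.4 in D244. In the other direction, Olfr56 was 0 and 96.8 in D251. Values up to 156 were thus missing from a second library of the same cell. Of the 9 cells led by a chromosome 11 gene only D233 was sequenced again, and it was led by Olfr325 in both libraries.

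**Figure D5:**
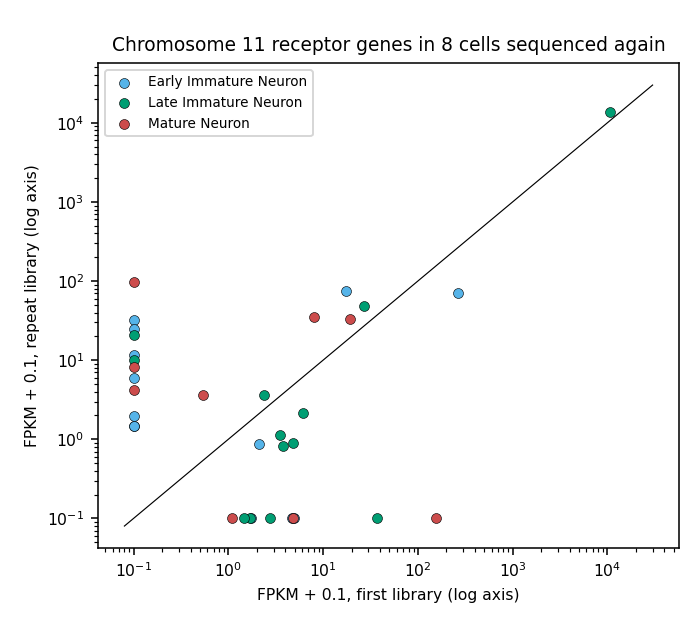
Each point is a chromosome 11 receptor gene in 1 of 8 cells, at its FPKM plus 0.1 in the first library (x) and in the repeat library (y), both on log axes, with the line of equality. The gene at 10652 and 13725 lies near the line, and 26 of 35 points have an FPKM under 1 in one of the libraries.

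The authors' deposited table of receptor and cell pairs lists 134 pairs, of which 13 (9.70%) are of chromosome 11 genes, in 11 cells. It holds 11 of the 17 gene and cell values at an FPKM of at least 100. For Olfr325 in D233 and Olfr393 in D202 the authors' deposited table gives 4635 and 836, the values of other entries of the same genes, where the highest entries of the gene table hold 10652 and 4258. The authors' deposited table gives D424 3 of the 13 pairs, Olfr323, Olfr43 and Olfr1395, and Olfr1383 none.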

How the data were processed

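Poly(A) RNA of single cells was amplified and sequenced. Per the submitters' processing notes, the tools were Cufflinks 2.2.1, TopHat2 2.0.14, cutadapt 1.2.1, Trim Galore and CASAVA 1.8.2, with mm10, and no source used here states their settings. The authors deposited a table of FPKM for 32975 entries in 93 libraries, an annotation with genomic positions and assembled Olfr transcripts, and a table of receptor and cell pairs, also in FPKM. Groups come from the sample titles.

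The first library of each of 85 cells was used, and detection means an FPKM of 1 or more. Depth was recovered from the spacing of low FPKM of 2282 single exon genes of 800 to 4000 bp. At least 97.1% of these low values were whole multiples of 1 fragment within 5%, and the procedure, tested on simulated data for 17 libraries, returned every depth within 2%. Fragments for entries under about 500 bp are approximate. PCR copies are not independent molecules. Stages were compared by differences of mean log2(FPKM + 1), for genes that 50% or more of the cells of at least one of the stages held.

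Every gene at an FPKM of at least 10 in a cell is named with its values in each cell at 1 or more, genes at 1 to 10 with their highest value, and up to 6 neighbours and list genes with the most cells. The members, lists and tests were chosen with earlier results of these data known. Coding sequences were aligned with Biopython 1.88, and figures made with matplotlib 3.10.9 in Python 3.11.15. Receptor proteins were not analysed here.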

Additional observations from a re-analysis of the deposited data

Results flagged for a closer look

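Among the 9 Precursor cells, 8 sets of values were searched for a single cell far from the rest, as the share of the whole range taken by the gap to the nearest cell (Dixon's limit for 9 values, 0.493). Chance picks out about 1 group in 20 in this way, and a gene detected in 1 cell of the group is always picked out. The summed FPKM of chromosome 11 genes stood apart in D345 (75.3), as did its main part, Olfr392 (73.9). The number of detected genes stood apart in D179, at 0, where the other cells held 1 or 2. In whole numbers from 0 to 2 a lone 0 always passes the limit, so the 1 in 20 does not hold for it. Single genes stood apart in D242 (Olfr325 at 6.51 and Olfr56 at 2.23), D383 (Olfr323 at 1.31) and D195 (Olfr393 at 4.37). The repeat libraries, which entered no count by stage, held chromosome 11 genes at an FPKM of at least 10 that were listed at 0 in the first library of the cell. These were Olfr56 in D251 (96.8), Olfr225 in D200 (32.5), Olfr1 (24.3) and Olfr1382 (11.6) in D244, Olfr1383 in D233 (21.0) and Olfr325 in D250 (10.1). Of these, Olfr225, Olfr1 and Olfr1382 were under an FPKM of 1 in every first library, so that the 29 detected genes are a lower bound for these cells.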

How the results depend on the processing

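Of 212 values under other settings, leave-one-out aside, 176 stayed within the spread over cells, the 95% interval of a share or 1.5 times a count, and 36 did not. The SD exceeded the mean number per cell in Progenitor (0.603 and 0.182), late immature (1.86 and 1.85) and mature neurons (2.18 and 1.92). A fall to 0 there counts as within the spread. Medians of summed FPKM, such as 8.40 in mature neurons, were set against the SD of cells that reach 27601. The 176 therefore do not show that the values are stable. Counts of genes are smaller at higher limits by construction. At an FPKM of at least 10 the genes detected were 0 in Progenitor, 1 in Precursor, 5 in late immature neurons and 8 in mature neurons. At 100 they were 0, 0, 8, 2 and 5 in the order of the stages. The Precursor mean per cell was 0.111 and 0 at these limits, and at 100 chromosome 11 had 0% of the Precursor cells' Olfr genes. Cluster 5 kept 8 genes at 10. With any FPKM above 0, Progenitor cells gave 0.909 per cell and 5 genes. Without assembled entries (15 fewer genes) the counts were 0, 1, 4 and 8 from Progenitor to late immature neurons, the Precursor mean 0.111, and 0 early immature neurons were led by a chromosome 11 gene. In cells D316 to D434 alone (fewer cells) 3 genes were detected in Precursor, 1 in late immature neurons and 3 in mature neurons, and 0 cells of the last 2 stages were led by one. Without values under 1% of the highest of a gene, the counts were 0 in Progenitor, 1 in Precursor and 7 in late immature neurons, and the Precursor mean 0.111. Entries under 500 bp left out, a setting chosen after seeing the data, gave 1 Progenitor gene. Pairs numbered 26 at an FPKM of 10, of which 15.4% lay within 1 Mb, and 40, of which 70% did, without values under 1% of the highest. Without D29 as well, 36.8% of 19 did. The share was 31.3% without pairs at least 80% identical, a setting chosen after seeing the data, and 15.5% without D29 as well. The 1% setting for counts of genes was also chosen then. Leaving out 1 cell, a choice made for pairs after seeing the data, put the share of pairs within 1 Mb between 32.4% (without D29) and 45.8%. Under the 1% setting it put the mean per cell between 0 (without D345) and 0.125 in Precursor, 0.333 (without D233) and 0.583 in late immature neurons, and at 0.458 in mature neurons without D29. It moved 2 counts of genes: the genes detected ranged from 0 to 2 in Progenitor cells, where D337 holds both, and from 9 to 15 in mature neurons, where D29 holds 6 alone. They ranged from 4 to 6 in Precursor, 14 to 17 in early immature neurons and 9 to 13 in late immature neurons. The planned comparison by protein identity was not run. No paired analysis was possible because the stages share no cell numbers. Depth limits the low values: in the shallowest library an FPKM of 1 in a gene of 1 kb stands for 0.614 fragments.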
